A study of Mus musculus with 1 sample.

Results

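The genes of the platelet-derived growth factor (PDGF) family were examined in RNA sequencing of 1 mouse fibroblast culture: the ligand genes Pdgfa, Pdgfb, Pdgfc and Pdgfd, the receptor genes Pdgfra and Pdgfrb, and the receptor-like gene Pdgfrl. They were chosen by symbol, and each of the 7 had 1 row among the 24214 rows of the deposited table, which stood for 23376 genes after copies of a gene were summed. The cells were grown out in vitro from normal pancreas, and the strain label gives a mixed background (C57BL/6 and BALB/c). The genotype label gives an animal without the Cre transgene (tf1acre-) and with floxed alleles of a gene that the label spells Tgfrb2 (Tgfrb2flox/flox). The series set out to compare such normal fibroblasts with cancer-associated fibroblasts, but 1 library labelled normal fibroblast is all that was analysed here, and its value column carries a CAF code that goes against the label. It is therefore called the library labelled normal fibroblast, its levels are described, and no condition was tested.

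PDGFs are dimeric secreted growth factors, and they act on mesenchymal cells through receptor tyrosine kinases. The alpha receptor, the product of Pdgfra, binds the A, B and C chains, and the beta receptor, the product of Pdgfrb, binds the B and D chains. Ligand binding joins the receptors in pairs, which then phosphorylate each other and recruit adaptors and enzymes of the RAS, PI3-kinase and phospholipase C pathways. Fibroblasts and pancreatic stellate cells divide and migrate when given PDGF, and the receptors serve as surface markers of fibroblasts and pericytes.

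The library held 52494688 reads, of which the 7 genes took 47356, or 0.0902% (exact Clopper-Pearson 95% interval 0.0894% to 0.0910%). With 1 library and no replicate, every interval given covers counting error only and leaves out the variation between cultures, and reads are not independent molecules. Levels are given as reads per 1000000 reads of the table (CPM, with exact Poisson intervals). To compare genes, reads were divided by the kilobases of all GENCODE exons of the gene (RPKM), and sums, shares and ratios of undivided reads are named as such. Of the fibroblast markers fixed for this check, 10 of 10 had at least 10 reads, against 67.6% of protein-coding genes. Such a count does not set fibroblasts apart, since 8 of 8 epithelial and 6 of 6 mesothelial markers reached it too. The fibroblast markers had a median of 182 RPKM, led by Vim at 603 RPKM. Fap, the fibroblast activation protein gene, was an exception at 29 reads, as was Lum at 278 reads. The 6 mesothelial markers had a median of 36.6 RPKM, led by Upk1b at 67.6 RPKM. The 8 acinar markers had a median of 20.0 RPKM, led by Ctrb1 at 58.5 RPKM. Their levels were split: Cpa1 and the genes above it had 13.4 RPKM or more. Prss1 and Ptf1a had only 6 reads each and Rbpjl 21 reads. Undivided by length, the mesothelial markers summed to 796 CPM and the acinar markers to 285 CPM. The sum of the fibroblast markers was 12384 CPM. The epithelial markers summed to 32.7 CPM, with Krt18 highest at 8.22 RPKM. What share of the PDGF reads came from such cells was not tested.

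Windows before an annotated transcript start, from the RefSeq promoter table (GRCm38.p6), were examined for 4 of the 7 genes: Pdgfa, Pdgfc, Pdgfd and Pdgfra. A gene can have several starts, and the windows of Pdgfra and Pdgfa lie inside the annotated gene, before an inner start and not before its outermost one. Those of Pdgfra and Pdgfd are shown. Of the 4 genes, they are the highest and the lowest expressed whose window holds no GENCODE exon, 36.5 RPKM against 1.05 RPKM. Pdgfrb, the highest member at 83.8 RPKM, was outside this choice. Capitals mark each CG dinucleotide and the TATA box core TATAAA. The window of Pdgfra is chr5:75152001-75152250 on the plus strand, and that of Pdgfd, whose part beyond the outermost gene start is not printed, is chr9:6168236-6168362 on the plus strand.
Pdgfra: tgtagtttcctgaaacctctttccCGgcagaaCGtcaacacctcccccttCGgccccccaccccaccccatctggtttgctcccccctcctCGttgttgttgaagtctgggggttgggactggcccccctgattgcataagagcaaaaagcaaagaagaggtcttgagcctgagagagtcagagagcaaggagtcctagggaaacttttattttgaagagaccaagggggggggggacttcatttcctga
Pdgfd: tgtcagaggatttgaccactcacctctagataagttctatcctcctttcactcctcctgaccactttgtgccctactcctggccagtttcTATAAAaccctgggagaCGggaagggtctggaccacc

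The Pdgfra window, 250 bases long, had 4 CG dinucleotides and no TATAAA, while the 127 bases printed for Pdgfd held 1 of each and its whole window of 250 bases 3 CG dinucleotides and 1 TATAAA. Over 32851 promoter windows of 250 bases, the median was 6 CG dinucleotides, and 12.4% held TATAAA on either strand. The other motifs searched on both strands, the CCAAT box (CCAAT) and the GC box (GGGCGG), were in neither sequence and occurred in 33.8% and 32.7% of all windows. None of the 3 motifs was found in the 250 bases before Pdgfc either, a window with 3 CG dinucleotides. Pdgfa, the most abundant ligand transcript, has a pair of start windows. In GENCODE, 232 of the 250 bases of the first lie in exons of Pdgfa or the opposite-strand gene 6330403L08Rik. Of the other window, 86 bases lie in exons of Pdgfa. G and C made up 72.4% and 66.4% of these windows, against a median of 52.4% over all windows. The first had 28 CG dinucleotides and 2 GC boxes, the other 19 and 1. Such letters describe the windows only, and no binding was measured.

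The receptor kinase genes were the most abundant members. Pdgfrb (GRCm38 chromosome 18, 61045127 to 61085067, plus strand) had 24086 reads, which is 459 CPM (453 to 465) or 83.8 RPKM (82.7 to 84.8). That level was above those of 98.5% of the protein-coding genes with a length, and Pdgfrb was at rank 307 among them. Pdgfra (chromosome 5, 75151322 to 75198206, plus strand) had 19225 reads, 366 CPM (361 to 371) or 36.5 RPKM (36.0 to 37.1), above 94.9% of those genes. Between them they held 91.5% of the reads of the 7 genes and 83.8% of their summed RPKM.

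Per kilobase of exon, Pdgfrb was 2.29 times as high as Pdgfra (exact interval 2.25 to 2.34), a contrast between genes that depended on the length chosen. GENCODE gives Pdgfra 9 transcripts, whose exons together cover 10024 bases, whereas the transcripts that the deposited row names cover 7000 bases. With the named transcripts as length the ratio was 1.62 (1.59 to 1.65), and with coding length, 3309 bases for Pdgfrb and 3267 for Pdgfra, it was 1.24 (1.21 to 1.26). Pdgfrb was higher under each of the 4 lengths tried, and in undivided reads as well, with a ratio of 1.25.

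Pdgfrl (chromosome 8, 40926233 to 40990782, plus strand) encodes a secreted protein with immunoglobulin-like domains similar to the ligand-binding part of the receptors and without a kinase. It had 2094 reads, 39.9 CPM (38.2 to 41.6) or 12.8 RPKM (12.2 to 13.3), above 82.8% of protein-coding genes. Its RPKM was lower than that of the receptor kinases: Pdgfra was 2.86 times as high (2.74 to 3.0) and Pdgfrb 6.56 times (6.28 to 6.87). These ratios were 2.03 and 3.29 with the length of the named transcripts, since the 1 transcript named for Pdgfrl has 1548 of its 3126 exonic bases.

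Ligand transcripts were fewer, and Pdgfa led them. Pdgfa (chromosome 5, 138976014 to 139000792, minus strand), whose chain forms the AA homodimer that acts on the alpha receptor, had 1165 reads, 22.2 CPM (20.9 to 23.5) or 7.12 RPKM (6.71 to 7.54). Pdgfc (chromosome 3, 81036416 to 81214040, plus strand) also encodes an alpha receptor ligand, secreted in a latent form whose CUB domain must be cut away. It had 484 reads, 9.22 CPM (8.42 to 10.1) or 1.81 RPKM (1.65 to 1.98). The RPKM of Pdgfa was 3.93 times that of Pdgfc (3.53 to 4.38).

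The ligands of the beta receptor were the lowest of the family. Pdgfd (chromosome 9, 6168363 to 6534284, plus strand), the other latent ligand, had 174 reads, 3.31 CPM (2.84 to 3.85) or 1.05 RPKM (0.901 to 1.22). Pdgfb (chromosome 15, 79995865 to 80024614, minus strand), the cellular counterpart of the viral oncogene sis, had 128 reads, 2.44 CPM (2.03 to 2.90) or 0.586 RPKM (0.489 to 0.697). In RPKM, Pdgfa was 12.1 times as high as Pdgfb (10.1 to 14.7). Pdgfd stood 1.79 times as high as Pdgfb per kilobase of exon (1.42 to 2.27), but 0.885 times with coding length (0.701 to 1.12), so the order of these 2 genes was not settled. Each other member kept its place under all 4 lengths, from Pdgfrb through Pdgfra, Pdgfrl and Pdgfa to Pdgfc. With the exon lengths no interval overlapped that of the next member in RPKM, while with coding length the levels of Pdgfrl and Pdgfa came to a ratio of 1.01 (0.941 to 1.09) and did not differ beyond counting error.

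**Figure D1:**
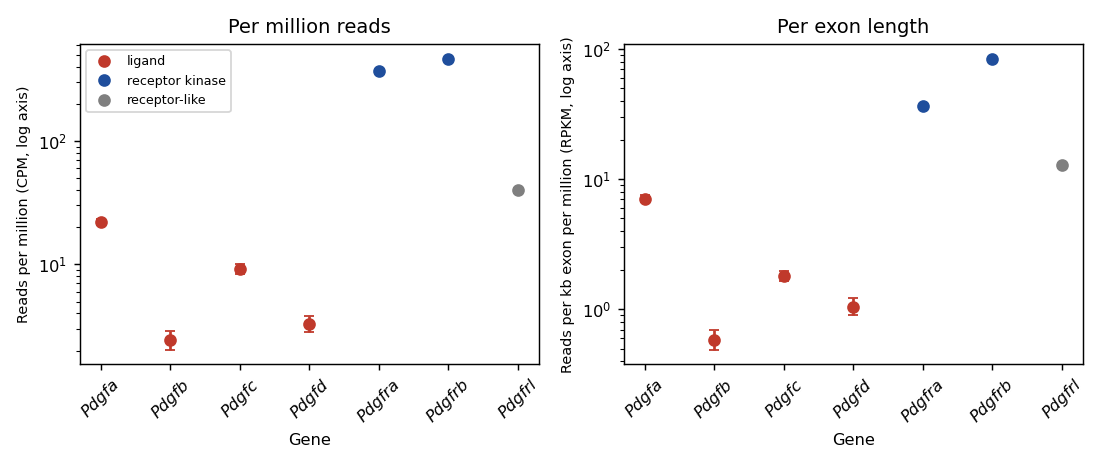
Levels of the 7 PDGF genes in the library, in CPM on the left and RPKM on the right, both on log axes, with exact Poisson 95% intervals (counting error only). On both scales Pdgfrb and Pdgfra stand highest, Pdgfa leads the ligands, and Pdgfb is lowest at 2.44 CPM and 0.586 RPKM.

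**Figure D2:**
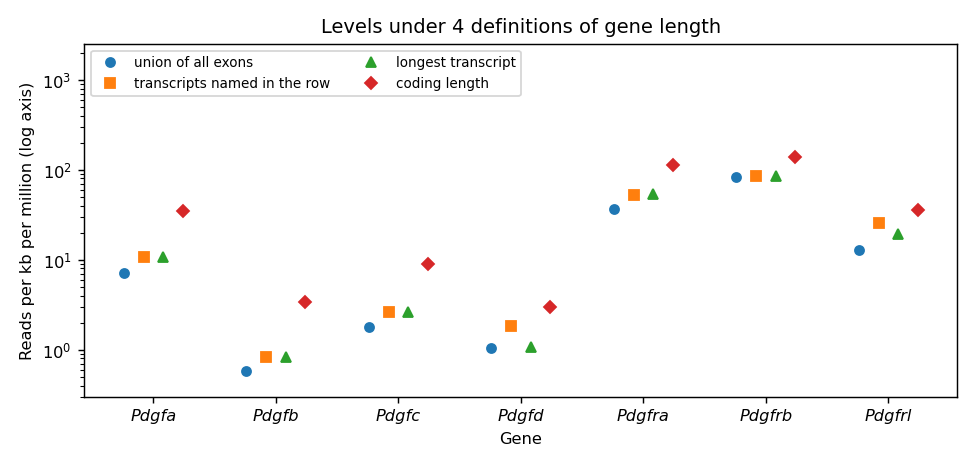
Reads per kilobase per 1000000 reads of each gene (log axis) under 4 definitions of gene length, shown by marker shape. Pdgfrb is highest under each, and Pdgfd falls below Pdgfb only with coding length (2.99 against 3.37).

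Summed over RPKM, the 4 ligands made up 8.07% of the ligand and receptor kinase transcripts, with coding length 16.7%, and in undivided reads 4.31% (4.13% to 4.50%). Within the ligand sum Pdgfa took 67.4% of the RPKM, Pdgfc 17.2%, Pdgfd 9.95% and Pdgfb 5.55%. Each receptor had a ligand transcript in the same culture, at different distances: Pdgfra stood 5.13 times as high as Pdgfa in RPKM (4.84 to 5.45), while Pdgfrb stood 79.7 times as high as Pdgfd (68.7 to 93.1) and 143 times as high as Pdgfb (120 to 171). With coding length these ratios were 3.20 for Pdgfra to Pdgfa, 46.4 for Pdgfrb to Pdgfd and 41.1 for Pdgfrb to Pdgfb, so which of the beta receptor ligands lay farther from Pdgfrb depended on the length. In undivided reads the ratio of Pdgfra to Pdgfa was 16.5. A transcript level does not give the amount of protein, and the culture medium, which can carry PDGF of its own, is not described in the labels.

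All 7 genes had at least 10 reads, as did 67.6% of the 20553 protein-coding genes. The median of the 7 was 7.12 RPKM, against 1.18 RPKM over all protein-coding genes with a length and 4.94 RPKM over those with at least 10 reads. Above the latter value lay 4 of the 7 (Pdgfrb, Pdgfra, Pdgfrl and Pdgfa), a level that 33.9% of protein-coding genes passed. Of the ligands, 1 of 4 passed it, and the ligand median was 1.43 RPKM.

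**Figure D3:**
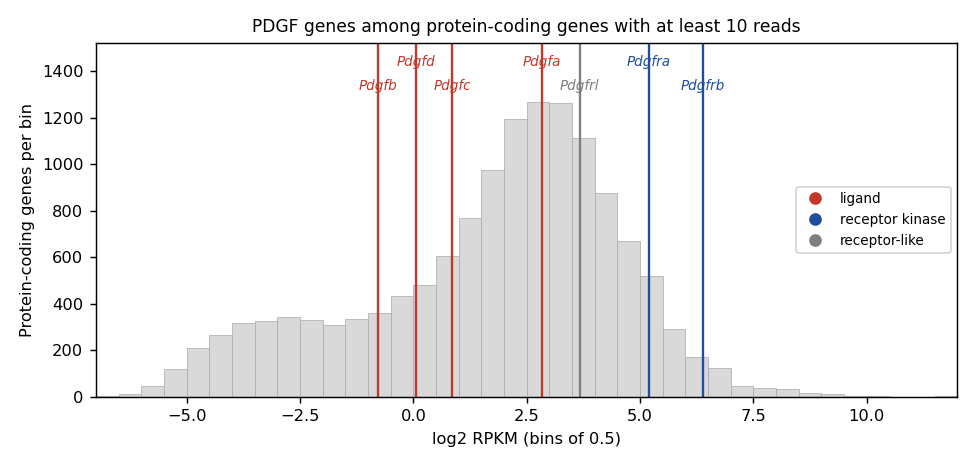
Number of protein-coding genes with at least 10 reads in bins of log2 RPKM (grey bars), with a line at each PDGF gene. Pdgfrb (6.39) and Pdgfra (5.19) lie in the upper tail, Pdgfrl (3.67) and Pdgfa (2.83) near the peak, and Pdgfc (0.86), Pdgfd (0.07) and Pdgfb (-0.77) on the lower side.

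Among 58 receptor tyrosine kinase genes, Pdgfrb ranked 2 and Pdgfra 6 by RPKM. The highest was Axl, the receptor of Gas6, at 321 RPKM, and next below Pdgfrb came Ryk, a Wnt co-receptor, at 72.2 RPKM. Pdgfra lay between the EGF receptor gene Egfr at 39.1 RPKM and the collagen receptor gene Ddr2 at 34.2 RPKM, and with the longest transcript as length Pdgfra ranked 4 and Pdgfrb 3. The other genes of the same receptor class, which share the split kinase domain, were much lower: Csf1r had 0.884 RPKM, Kit 9 reads and Flt3 3 reads. At least 10 reads were found for 50 of the 58 genes (86.2%), against 67.6% of protein-coding genes. Among the genes under that limit, beside Kit and Flt3, were Ephb1, Epha6, Alk, Erbb4 and Epha10.

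In a list of 50 genes of ligands for such receptors, the PDGF genes took ranks 11 (Pdgfa), 19 (Pdgfc), 24 (Pdgfd) and 28 (Pdgfb) by RPKM. Csf1, whose receptor gene was low, led that list at 148 RPKM. Pdgfa stood between the EGF receptor ligand gene Ereg at 8.27 RPKM and Vegfb at 7.0 RPKM, of which Vegfb lay within the counting interval of Pdgfa and Ereg above it. Pdgfc lay between Igf1 (1.95 RPKM) and Igf2 (1.61 RPKM). Around Pdgfd were Ptn at 1.13 RPKM and Vegfc at 0.809 RPKM, and around Pdgfb were Flt3l at 0.717 RPKM and Angpt4 at 0.530 RPKM. Vegfa and Vegfd, of the VEGF branch that shares the cystine knot fold of the PDGFs, had 45.3 RPKM and 46.6 RPKM.

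**Figure D4:**
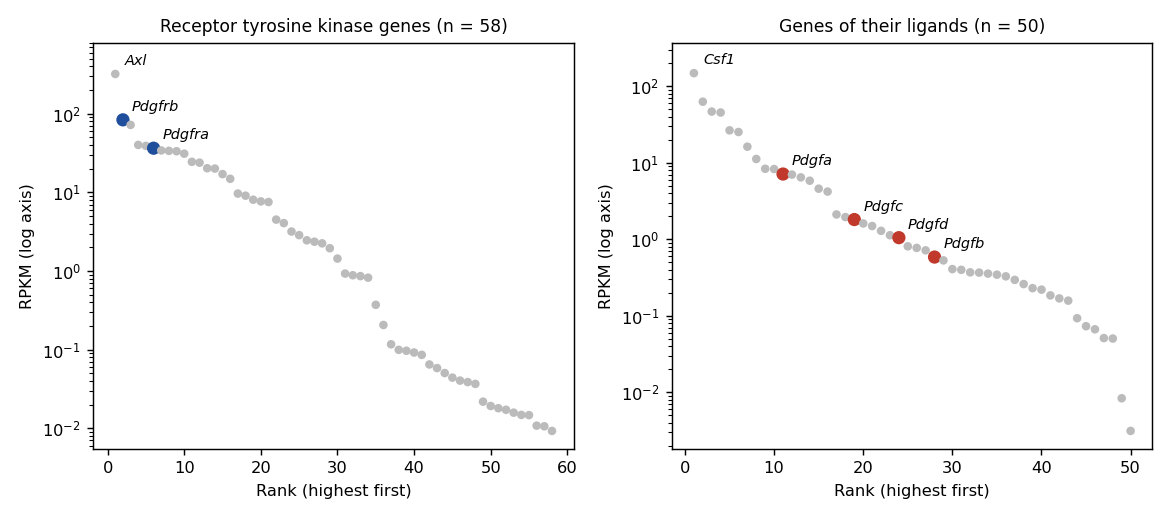
RPKM (log axis) of 58 receptor tyrosine kinase genes (left) and 50 genes of their ligands (right), ordered from high to low, with PDGF members in colour. The receptors rank 2 and 6, whereas the ligands lie lower in their list, at ranks 11 to 28.

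The remaining genes of the pathway were taken from 5 lists, 63 genes in all. Each of the 63 had at least 10 reads, against 67.6% of protein-coding genes, and 53 of them (84.1%) lay above the median RPKM of detected genes, against 33.9%. Genes of core signalling proteins are read in most cell types, and the lists were not compared with others of that kind.

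PDGF chains are cut before they can act. Furin and related convertases cut the A and B chains inside the cell, the tissue plasminogen activator (Plat) can activate the C chain, and urokinase (Plau) or matriptase (St14) the D chain. Of the 7 genes of ligand maturation, Plau was highest at 55.0 RPKM, followed by the convertase genes Pcsk6 at 26.8 RPKM and Furin at 11.9 RPKM. Plat had 11.1 RPKM. The matriptase gene St14, at 48 reads, and Pcsk5, at 47 reads, were lowest, so that of the D chain proteases Plau rather than St14 had abundant transcripts.

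Among the 5 genes of proteins that bind a PDGF or its receptors, the median was 70.1 RPKM. Sparc, a matrix protein that binds the B chain, had 1242 RPKM, the endocytic receptor gene Lrp1, a partner of the beta receptor, 117 RPKM, and the integrin chain gene Itgav 70.1 RPKM. Its partner chain Itgb3 was lowest at 3.46 RPKM, below Nrp1 at 5.50 RPKM.

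The 29 adaptors and effectors had a median of 10.2 RPKM, and 25 lay above the median of detected genes. Grb10, an imprinted adaptor of receptor tyrosine kinases, had 393 RPKM, and Crk, an SH2 and SH3 adaptor, had 60.7 RPKM. The phosphatase gene Ptpn11, whose product SHP2 docks on both receptors, had 37.0 RPKM. The RAS genes Hras and Nras had 18.7 and 16.9 RPKM, and Plcg1, Pik3ca and Pik3r1, of the phospholipase and PI3-kinase arms, had 8.60, 9.0 and 5.43 RPKM. Grb7 was lowest, with 23 reads.

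Genes that restrain the receptors were at a median of 6.72 RPKM, and 8 of 9 lay above the median of detected genes. Ptpn12, a tyrosine phosphatase, had 27.6 RPKM, and Ptpn2, of the same enzyme class, had 10.4 RPKM. The ubiquitin ligase genes Cbl and Cblb, whose products mark receptors for breakdown, had 6.72 RPKM and 5.33 RPKM.

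The 13 genes classically induced when resting fibroblasts are given PDGF had a median of 25.2 RPKM. Ier3 was highest at 61.8 RPKM, followed by the transcription factor genes Egr1 at 47.0 RPKM and Nr4a1 at 42.2 RPKM, and Myc and Fos had 40.4 RPKM and 38.9 RPKM. The chemokine genes Ccl2 and Cxcl1, first isolated as PDGF-induced sequences, were lower at 6.34 RPKM and 1.02 RPKM. Many stimuli besides PDGF, serum included, induce these genes, and no stimulated or resting culture was at hand for comparison.

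**Figure D5:**
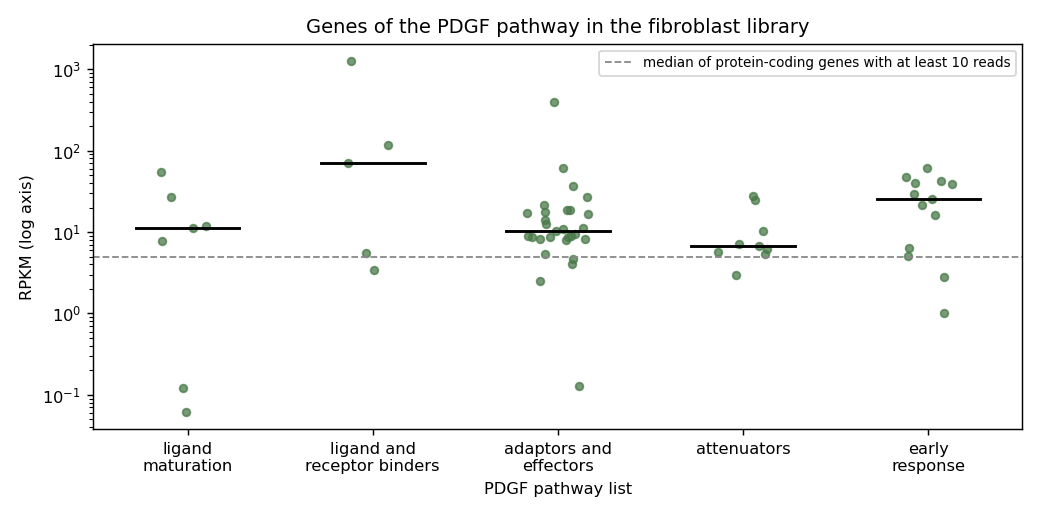
RPKM (log axis) of the genes of 5 PDGF pathway lists (dots, spread sideways for legibility), with the median of each list as a black bar and the median of protein-coding genes with at least 10 reads, 4.94 RPKM, as a dashed line. The medians, from 6.72 RPKM (attenuators) to 70.1 RPKM (binders), all lie above the dashed line, and Pcsk5, St14 and Grb7 lie far below it.

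Other cells of a tissue express PDGF receptors or ligands, so their markers are given beside the levels above. Pdgfrb also marks pericytes and vascular smooth muscle. Of 9 markers of those cells, 5 reached 10 reads (55.6%, against 67.6% of protein-coding genes), and the median of the 9 was 0.218 RPKM. Mcam was highest at 20.8 RPKM, Notch3 had 1.25 RPKM and Cspg4 0.730 RPKM, while the pericyte genes Rgs5 and Kcnj8 had 6 and 8 reads and Higd1b had 0, a count that allows up to 0.0571 CPM with 3 reads as the floor (the upper end of its Poisson interval is 0.0703 CPM). Pdgfra also marks oligodendrocyte precursors; in the list of that lineage and Schwann cells Cspg4 led, Sox10 had 5 reads, and Olig2 had 0.

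Endothelial cells and platelets are textbook sources of the B chain, and macrophages express it too. The 10 endothelial markers had a median of 0.0471 RPKM, from Egfl7 at 0.660 RPKM down to Cldn5 at 0 reads, with Pecam1 at 13 reads. At least 10 reads were found for 8 of the 10 (80.0%, against 67.6% of protein-coding genes). Of the platelet markers Gp1bb had 5.24 RPKM and Itga2b 0.639 RPKM (183 reads), but Pf4, Ppbp, Gp9 and Gp1ba had between 1 and 3 reads. Macrophage markers had a median of 0.551 RPKM, and 7 of 8 had at least 10 reads (87.5%). Lyz2 led them at 6.99 RPKM, followed by Cd14 at 4.09 RPKM and Cd68 at 3.56 RPKM, with the leukocyte gene Ptprc at 26 reads. How much of the 128 Pdgfb reads these cells gave was not tested.

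Reads shared with other genes could bear on some members. Exons of Pdgfa share 813 of 3119 bases (26.1%) with 6330403L08Rik, a gene on the opposite strand without a row in the table. Pdgfra shares 6.50% of its exonic bases with 3 other genes and Pdgfc 2.89% with 1, and whether the counting used strand is not given in the sources. No such overlap was found for Pdgfb, Pdgfd, Pdgfrb and Pdgfrl. Of all 35-base windows in the coding transcripts, only 20 of 9460 in Pdgfra, and none in the other members, occurred in a GENCODE transcript of a gene that does not overlap the member. Between members, 2 windows of Pdgfra also occurred in a transcript of another member. The read length of this library is not given in the sources.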

How the data were processed

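Per the labels' protocols, TRIzol was used for the total RNA of 1 culture and SOLiD methods for the library. Per the file headers, the deposited table holds a gene symbol, transcript accessions and 1 signal value in each of 24214 rows. Of 20976 values above 0, 100.00% were whole multiples of 1.18 within 0.006 reads, so the authors' deposited signal was taken as read counts divided by 1 size factor of 0.850, and whole reads were recovered (52494688; 1 read is 0.0190 CPM). The submitters' processing notes name DESeq and mm10 without a role; the sources used here do not give the aligner, counter, strand setting or filters. A count test needs replicates and was not run.

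Rows matched the GRCm38.p6 RefSeq table by accession (98.4%); copies of a gene were summed, and an NM accession marked a gene as protein-coding. Exon lengths are unions over GENCODE M21 exons (99.7% of coding genes). The members, lists and alternatives were chosen with earlier results of these data known. From each pathway list the 3 highest genes and those under 10 reads are named, from the rank lists the neighbours and the top gene, from marker lists the highest gene and those at 0; further list genes were named after their values were seen, and some list genes are not reported here. With 1 library no gene could be chosen for a pattern over samples. Coding lengths, planned from proteins, were taken from GENCODE. Alternatives were other lengths, totals and read minimums. The recovery was tested on simulated data. Scripts ran under Python 3.11.15 with scipy 1.17.1, pandas 2.3.3, numpy 2.4.6 and matplotlib 3.10.9.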

Additional observations from a re-analysis of the deposited data

How the results depend on the processing

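There was no replicate to leave out. No paired analysis was possible because only 1 library was analysed. Other totals scale all genes alike. A total of protein-coding genes raised levels by 0.12 log2 units, to 24.2 CPM for Pdgfa, 399 for Pdgfra, 499 for Pdgfrb and 43.4 for Pdgfrl, and left the other 3 genes within their intervals. A total without the 100 most abundant genes raised levels by 0.42, to 29.7 CPM for Pdgfa, 3.26 for Pdgfb, 12.3 for Pdgfc, 4.44 for Pdgfd, 490 for Pdgfra, 614 for Pdgfrb and 53.4 for Pdgfrl. Keeping each row on its own could change none of the 7 levels, since each gene has 1 row. The ratio of Pdgfrb to Pdgfra, 2.29 per kilobase of all exons, was 1.58 with the longest transcript, 1.24 with coding length, 1.25 undivided and 1.62 with the named transcripts, a length added after seeing the data. That of Pdgfa to Pdgfc was 2.41 undivided and between 3.93 and 4.11 with the other lengths. The ligand share of 8.07% became 9.96% with the longest transcript, 16.7% with coding length, 4.31% undivided and 10.5% with the named transcripts. The lengths themselves set these changes. Undivided, Pdgfra ranked 4 among receptor kinases, and Pdgfa, Pdgfc and Pdgfd ranked 13, 18 and 26 among ligands. With the longest transcript, also an added setting for ranks, Pdgfrb ranked 3, Pdgfra 4, Pdgfa 10, Pdgfb 27 and Pdgfd 26. Pathway genes detected numbered 63 at 1 read and 60 at 50 reads. The depth leaves Pdgfb and Pdgfd, at 128 and 174 reads, with the widest intervals relative to their level.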
